A study of Mus musculus with 6 samples.

Results

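The S-phase progenitors without Lgr5 of the mouse small intestine are epithelial cells rich in transcripts of genes for S phase, when DNA is copied. DNA synthesis itself was not measured. No transcript of the stem cell receptor gene Lgr5 was counted in these cells. They were chosen by their expression, cell by cell. A cell barcode, the tag of 1 droplet and usually of 1 cell, was kept when it held at least 500 genes and at most 25% of its unique molecular identifiers (UMIs, each marking 1 captured RNA molecule) from mitochondrially encoded genes. It was taken as a member when its UMIs for Ung, Hells, Uhrf1, Mcm3, Mcm6, Lig1 and Chaf1b summed to at least 5 per 10000 and those for Mki67, Top2a, Ube2c, Cdk1, Birc5, Nusap1, Prc1 and Cenpf to under 8 per 10000. Members also held no UMI of Lgr5 or of the secretory fate genes Atoh1 and Neurog3. The rule was met by 2430 of 26045 kept barcodes (9.33%). The study profiled small-intestinal epithelial cells of C57BL/6J mice, labelled as 8 weeks old, with droplet-based 3' single-cell RNA sequencing. It held 3 wild-type libraries and 3 libraries titled Itgb7 KO, with the genotype Itgb7-/-, and no treatment was named for either group. Per the series title, the study concerned T cells that carry the integrin αEβ7 and the fate decision of intestinal stem cells. The labels state neither which part of Itgb7 was deleted nor whether each library came from 1 animal, so the p-values speak to the variation among libraries, part of which may be technical.

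In the crypts of the small intestine, stem cells with Lgr5 at the crypt base give rise to transit-amplifying progenitors, which divide a few more times before they become absorptive or secretory cells. Entry into S phase, when DNA is replicated, is driven by E2F transcription factors once cyclin-dependent kinases have inactivated the retinoblastoma protein. E2F factors switch on genes for the replicative helicase, the polymerases, nucleotide synthesis and the repackaging of new DNA. Later in the cycle, in G2 and mitosis, genes such as Top2a, Birc5 and Ube2c, for chromosome separation and protein destruction, take over.

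The genes behind the S-phase sum are classical targets of this program, and their promoters were searched for the E2F-type letters TTCGCGC or TTGGCGC or TTCCCGC or TTGCCGC on both strands in the 250 bases before each start. Sequences were those of RefSeq for the mouse build GRCm38.p6. At least 1 match was found for 4 of the 7 S-phase genes (57.1%), namely Hells, Mcm6, Uhrf1 and Chaf1b, and none for Ung, Mcm3 and Lig1 in this window. A match stood before 9.01% of 27025 genes with a promoter and before 17.4% of the 7748 such genes that were tested in the progenitors. Of the genes of the replication origin and fork outside the rule, 16 of 38 (42.1%) held one. The promoters of Hells (chr19:38930740-38930989, plus strand) and Mcm6 (chr1:128359706-128359955, minus strand) are shown because they carried the most matches. Hells encodes a chromatin remodeller needed for DNA methylation, and Mcm6 a subunit of the replicative helicase. Each runs 5′ to 3′ with its last base next to the start, and capitals mark the matches. In Hells the matches began 61 and 43 bases before the start. In Mcm6 the 4 matches began 109, 106, 46 and 43 bases before it and overlapped in pairs, so that the same stretch of letters appeared at both places. A match describes the letters and is no measurement of binding.
Hells: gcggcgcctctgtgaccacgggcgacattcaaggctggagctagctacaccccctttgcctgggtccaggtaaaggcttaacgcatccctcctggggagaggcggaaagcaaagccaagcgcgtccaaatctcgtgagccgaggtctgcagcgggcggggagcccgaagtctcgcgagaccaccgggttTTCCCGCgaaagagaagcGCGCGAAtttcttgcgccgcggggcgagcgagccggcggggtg
Mcm6: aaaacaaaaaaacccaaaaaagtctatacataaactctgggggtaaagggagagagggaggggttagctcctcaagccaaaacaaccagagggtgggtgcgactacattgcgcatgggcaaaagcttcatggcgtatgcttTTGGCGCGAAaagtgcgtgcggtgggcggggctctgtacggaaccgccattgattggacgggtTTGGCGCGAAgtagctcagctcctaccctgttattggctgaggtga

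The 6 libraries held 26153 barcodes, of which 3 failed the limit on genes and 107 the limit on mitochondrial UMIs. Their totals ranged from 28475253 UMIs in Itgb7 KO replicate 3 to 76133693 in wild-type replicate 1. The progenitors numbered 162, 577 and 366 in wild-type replicates 1 to 3 and 174, 572 and 579 in Itgb7 KO replicates 1 to 3. They supplied 3568758 to 7035288 UMIs per library. Replicates 1 of both groups stood apart from the other 4 libraries. Their progenitors had median depths of 21787 and 20354.5 UMIs, against 12034 and 13113.5 in wild-type replicates 2 and 3 and 9094.5 and 6227 in Itgb7 KO replicates 2 and 3. The summed level of Paneth cell markers in the progenitors of replicates 1 was 6915 and 3674 counts per 1000000 UMIs (CPM), against 229 to 848 CPM in the others. Any 2 libraries shared 12 to 42 barcodes, and progenitors shared at most 1. In the progenitors, Itgb7 itself gave 0, 2 and 1 UMIs in wild-type replicates 1 to 3 and 1, 2 and 1 in the libraries labelled Itgb7 KO. In all kept barcodes Itgb7 stood at 0.0394, 0.126 and 0.0314 CPM in wild-type and at 0.290, 0.570 and 0.423 CPM in those labelled Itgb7 KO. It was thus rare, and higher in every library labelled Itgb7 KO. A 3' tag can lie outside a deleted part, so these counts do not check the labels.

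The genes of the rule show what was selected, and their levels are a description. Hells stood at 140, 193 and 213 CPM in the wild-type progenitors and at 159, 222 and 271 CPM in the progenitors labelled Itgb7 KO. Over the 6 libraries its mean was 200 CPM, against 33.9 CPM in G2/M cells and 12.4 CPM in the remaining barcodes. G2/M cells are the 3066 barcodes with a G2/M sum of at least 8 and an S-phase sum under 5, and the remaining barcodes the 11177 under both limits, all of them without Lgr5, Atoh1 and Neurog3. Ung, a glycosylase that removes uracil from new DNA, averaged 114 CPM in the progenitors and 5.11 CPM in G2/M cells. Mcm6 averaged 193 CPM against 33.0 CPM, and Uhrf1, which guides DNA methylation to the copied strand, 128 against 31.2 CPM. Mcm3, another helicase subunit, averaged 122 against 22.5 CPM, Lig1, the ligase that joins Okazaki fragments, 171 against 55.0 CPM, and Chaf1b, a subunit of the chromatin assembly factor, 55.6 against 11.2 CPM. In contrast, Ube2c averaged 64.2 CPM in the progenitors and 748 CPM in G2/M cells, and Birc5 90.1 and 497 CPM. With every barcode thinned to 4000 UMIs, Hells had a UMI in 42.0% to 69.4% of the progenitors per library and in 4.11% to 5.15% of the remaining barcodes, and Mcm6 in 48.4% to 61.5% and 4.98% to 8.24%. Without thinning these shares were 79.4% to 95.1% and 7.07% to 15.2% for Hells.

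The limits cut through a continuum. The 333 progenitors with an S-phase sum of 5 to under 6 held a median of 6 S-phase UMIs from 4 of the 7 genes. The 365 barcodes just outside, at 4 to under 5, held 4 UMIs from 3 genes. At the other limit, 159 progenitors had a G2/M sum of 7 to under 8, and 113 barcodes a sum of 8 to under 9. The progenitors of Itgb7 KO replicate 3, the shallowest library, rested on a median of 6 S-phase UMIs, and those of wild-type replicate 1 on 19.

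Genes of DNA replication that the rule did not use were high together with those it used. The replication origin and fork list of 49 genes summed to 3028, 3444 and 2959 CPM in the wild-type progenitors and to 3095, 3330 and 3229 CPM in those labelled Itgb7 KO. In G2/M cells the same sum was 1514 to 2080 CPM and in the remaining barcodes 642 to 835 CPM. The progenitors thus stood above the G2/M cells of their own library by 1.55 to 2.04 times, in 6 of 6 libraries. Pcna, the sliding clamp of the polymerases, averaged 268 CPM in the progenitors, 87.9 CPM in G2/M cells and 66.1 CPM in the remaining barcodes. Mcm7, a helicase subunit, averaged 136, 50.03 and 19.1 CPM in the same order. Gmnn, whose product blocks a second licensing of origins, averaged 154, 111 and 48.4 CPM. Clspn, which relays checkpoint signals from stalled forks, averaged 38.1, 16.5 and 2.56 CPM. The 26 genes of nucleotide supply summed to 1.27 to 1.40 times the level in G2/M cells. Among them Dut, which clears dUTP, averaged 256 against 123 CPM, and Impdh2, which makes guanine nucleotides, 392 against 276 CPM.

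Several other lists of the cycle program summed to less in the progenitors than in G2/M cells. The 38 further mitosis genes, which exclude those of the rule, summed to 2508 to 2694 CPM in the progenitors and to 5322 to 6487 CPM in G2/M cells. The histone list was lower than in G2/M cells in 6 of 6 libraries, at 0.684 to 0.787 times their level. Its most abundant members are replication-independent variants with polyadenylated messages, such as H2afz with 2005 and 2645 CPM and H3f3b with 1712 and 2557 CPM. Polyadenylation is what this 3' assay captures, and most replication-dependent histone messages lack it. The replication-dependent gene Hist1h2ap was captured nonetheless, and it too was more frequent in G2/M cells. With barcodes thinned as before, it had a UMI in 20.2% to 31.6% of the progenitors per library and in 61.7% to 72.5% of G2/M cells. Whether capture accounts for the lower histone sum was not tested. G1/S control genes stood at 0.850 to 0.942 times the G2/M level, and inhibitors of cyclin-dependent kinases at 0.370 to 0.498 times. Cdkn1a, the inhibitor p21, averaged 61.5 CPM in the progenitors, 96.5 CPM in G2/M cells and 198 CPM in the remaining barcodes. Ccne2, a cyclin that drives entry into S phase, went against the sum of its G1/S list and averaged 45.6, 5.24 and 4.12 CPM.

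Stem cell and fate genes set the progenitors apart from S-phase cells with at least 1 Lgr5 UMI, 590 barcodes in all that met every other criterion. The 22 stem cell genes in the files, Lgr5 not among them, summed to 903, 1223 and 982 CPM in the wild-type progenitors and to 914, 1280 and 1358 CPM in those labelled Itgb7 KO. In the S-phase cells with Lgr5 the sum was 1758 to 2650 CPM, so the progenitors held 0.483 to 0.530 of that level. They stood above G2/M cells by 1.38 to 1.76 times in 6 of 6 libraries. Slc12a2, an ion cotransporter of crypt cells, averaged 228 CPM in the progenitors, 452 CPM in S-phase cells with Lgr5 and 146 CPM in G2/M cells. Cdca7, a partner of Hells in chromatin remodelling, averaged 188, 313 and 82.6 CPM, and Smoc2, a secreted stem cell marker, 113, 197 and 84.8 CPM. Gkn3 averaged 44.4, 130 and 18.1 CPM, and Cd44, an adhesion receptor and Wnt target, 32.7, 75.8 and 24.9 CPM. The replication list lay at 0.986 to 1.07 times the level of the S-phase cells with Lgr5, far closer than the stem cell genes. The median depth of the S-phase cells with Lgr5, 5402 to 19066 UMIs, was below that of the progenitors in each of the 6 libraries.

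Fate genes followed the stem cell genes, and the enterocyte list, like some lists of mature secretory cells, went the other way. Wnt targets stood at 0.592 to 0.712 and secretory fate genes at 0.560 to 0.681 of the level in S-phase cells with Lgr5. Among the fate genes Sox4 averaged 135 against 287 CPM and Hes6 88.4 against 126 CPM. The 21 Notch pathway genes stood at 0.788 to 0.893, and Hes1, the Notch effector that holds back secretory fate, averaged 192 against 275 CPM. The 30 enterocyte genes summed to 4642 to 6689 CPM in the progenitors. That was above the S-phase cells with Lgr5 in 6 of 6 libraries, by 1.03 to 1.62 times, below G2/M cells in 6 of 6, at 0.660 to 0.805 times, and at 0.216 to 0.335 times the level of the remaining barcodes. The most abundant members of this list were Prap1 and the antimicrobial lectins Reg3b and Reg3g, so its sum is not one of absorptive genes alone. Reg3b gave 5535 of 3687292 UMIs in the progenitors of wild-type replicate 1 and 1206 of 7035288 in those of replicate 2. Fabp2, which carries fatty acids in enterocytes, averaged 548 CPM in the progenitors, 385 CPM in S-phase cells with Lgr5, 605 CPM in G2/M cells and 1355 CPM in the remaining barcodes. Sis, the brush border sucrase-isomaltase, averaged 69.9, 45.3, 155 and 661 CPM in the same order. Free RNA from mature cells adds to such low levels in droplets, and its part was not tested.

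**Figure D1:**
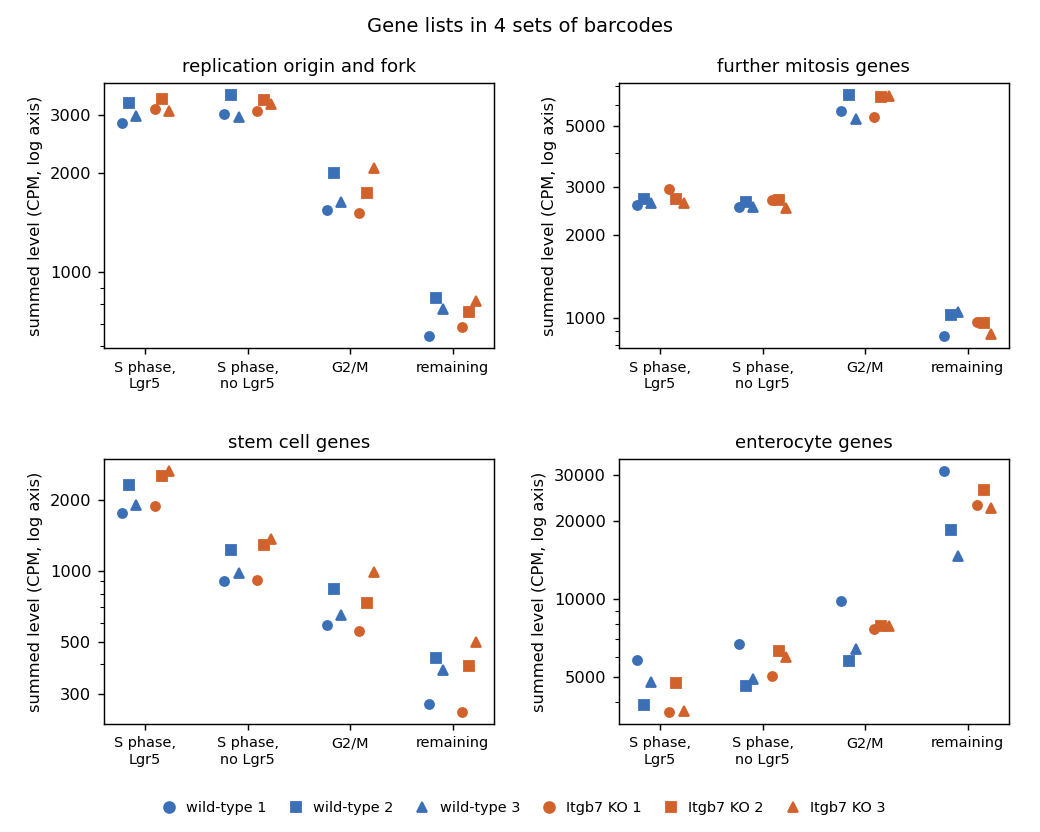
Summed level of 4 gene lists (CPM, log axis) in S-phase cells with Lgr5, S-phase progenitors without Lgr5, G2/M cells and the remaining barcodes; each point is 1 library, blue for wild-type and orange for Itgb7 KO. Replication genes are at about the same level in both S-phase sets, stem cell genes step down from left to right, and enterocyte genes step up in the means although libraries overlap.

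The progenitors carried epithelial markers, and several defining immune markers had no UMI. Epcam, an epithelial adhesion molecule, had a UMI in 99.5% to 100% of the progenitors per library, and the epithelial list summed to 8934 to 10781 CPM. The T cell genes Cd3d, Cd3e, Cd8a and Cd8b1 and the leukocyte gene Ptprc had 0 UMIs in the progenitors of all 6 libraries. Of 14 T cell markers in the files 6 had a UMI, and their sum was 1.1 to 4.0 CPM. The B cell gene Ms4a1, the macrophage gene C1qa and the stromal gene Col1a1 were at 0 as well. Other markers on those lists were counted. Of 7 B and plasma cell markers in the files 5 had a UMI, with a sum of 60.6 to 952 CPM that was mostly Cd74, an MHC class II gene. Of the myeloid markers 7 had a UMI, with a sum of 10.2 to 19.9 CPM, and 2 of the stromal and endothelial markers, with 0.542 to 1.82 CPM. Of 2430 progenitors, 81 held over 2% of their UMIs in 1 of 5 lists of mature epithelial genes (enterocyte, goblet, Paneth, enteroendocrine or tuft). These marker-rich barcodes numbered 7 of 162, 10 of 577 and 8 of 366 progenitors in wild-type replicates 1 to 3. In Itgb7 KO replicates 1 to 3 they numbered 6 of 174, 21 of 572 and 29 of 579.

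Within the progenitors, the G2/M sum ordered the genes of the cycle. It was split at 4 per 10000, and this split is a description since the sum was part of the rule. There were 1610 progenitors below 4, of which 348 had no G2/M UMI at all, and 820 from 4 to under 8. The genes of this paragraph were chosen after their values were seen. Hist1h2ap, a replication-dependent histone gene, was 62.3 CPM below 4 and 326 CPM above, a ratio of 3.71 to 7.001 within the libraries. Rrm2, the subunit that limits ribonucleotide reductase, was 112 and 232 CPM, and Ccna2, the cyclin of S and G2 phase, 34.4 and 71.5 CPM. Clspn, Ccne1 and Tyms were also higher at the higher G2/M sum in 6 of 6 libraries, by 1.35 to 2.49, 1.37 to 1.60 and 1.34 to 1.59 times. The replication origin and fork list as a whole was higher in 6 of 6 libraries, by 1.09 to 1.23 times. Of the helicase subunits, Mcm5 and Mcm7 were higher in 6 of 6, by 1.12 to 1.34 and 1.03 to 1.33 times, whereas Mcm2 and Mcm4 and the licensing factor Cdt1 showed no common direction. Mcm2 was higher in 2 of 6 libraries with ratios of 0.78 to 1.04, Mcm4 in 4 of 6 with 0.88 to 1.23, and Cdt1 in 2 of 6 with 0.91 to 1.12.

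Stem cell genes ran against the G2/M sum. As a list they were at 0.717 to 0.855 of the level below 4, lower in 6 of 6 libraries. Axin2, a Wnt feedback inhibitor, was 39.1 CPM below 4 and 26.6 CPM above. Slc12a2 was 251 and 189 CPM, Sox9, a crypt transcription factor, 79.9 and 63.2 CPM, and Cdca7 204 and 164 CPM. Ccnd2, the cyclin D of early G1, was 697 and 628 CPM, lower in 6 of 6 libraries. Secretory fate genes stood at 0.724 to 0.859, lower in 6 of 6 libraries. Enterocyte genes had no common direction, with ratios of 0.879 to 1.07. The share of progenitors with no G2/M UMI was 1.23%, 10.7% and 7.92% in wild-type and 1.15%, 14.3% and 29.5% in the libraries labelled Itgb7 KO, and was highest in the shallowest library.

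**Figure D2:**
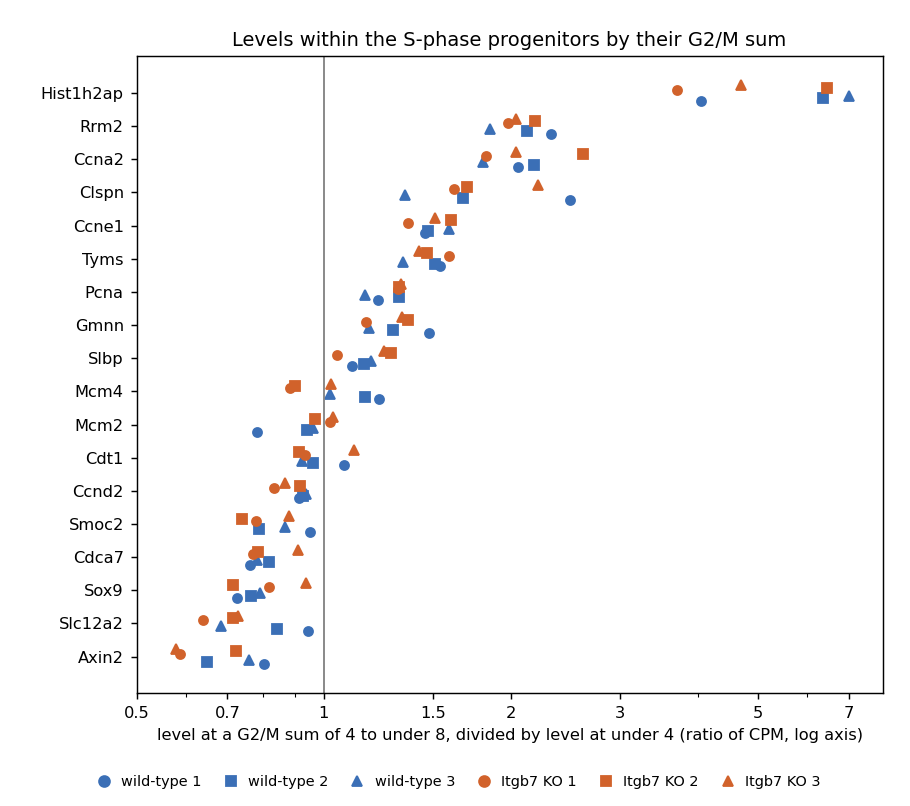
For 18 genes, the level in progenitors with a G2/M sum of 4 to under 8 divided by the level at under 4 (ratio of CPM, log axis); each point is 1 library, blue for wild-type and orange for Itgb7 KO. Hist1h2ap, Rrm2 and Ccna2 lie right of 1 in all 6 libraries and Axin2, Slc12a2 and Sox9 left of 1, while Mcm2, Mcm4 and Cdt1 straddle it.

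The share of S-phase progenitors without Lgr5 did not separate the genotypes. They made up 5.84%, 11.4% and 7.12% of the kept barcodes of the wild-type libraries and 6.23%, 9.98% and 12.7% of those labelled Itgb7 KO. The groups overlapped, and replicates 1 were lowest in each. The means were 8.13% ± 2.93 (SD, n = 3) and 9.63% ± 3.24 (SD, n = 3), a difference of 1.5 percentage points (exact 2-sided permutation test over libraries, p = 0.6, with 0.1 the smallest p that 3 against 3 allows). Without Itgb7 KO replicate 3 the difference was -0.0251 points. With each barcode thinned to 4000 UMIs the shares were 11.2%, 16.2% and 11.4% against 11.1%, 13.5% and 15.7%, a difference of 0.522 points (exact permutation test, p = 1). Thinning left out 0, 51 and 178 shallower barcodes in wild-type and 0, 222 and 577 in those labelled Itgb7 KO. Among all cycling barcodes without fate genes, the progenitors made up 26.1%, 40.2% and 35.9% in wild-type and 24.9%, 33.8% and 46.9% in those labelled Itgb7 KO (exact permutation test, p = 1).

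The share of S-phase cells in which an Lgr5 UMI was counted was lower on average in the libraries labelled Itgb7 KO. It was 30.5%, 20.5% and 24.8% in wild-type and 25.6%, 15.6% and 12.5% in Itgb7 KO, and the groups overlapped (difference of -7.34 points, exact permutation test, p = 0.3). This share depends on depth, and at 4000 UMIs per barcode it was 9.88%, 10.7% and 12.8% against 6.33%, 8.03% and 10.04%. The groups still overlapped at that depth (difference of -2.99 points, exact permutation test, p = 0.2). Within replicate numbers the library labelled Itgb7 KO was lower in 3 of 3 pairs, both with and without thinning (exact sign-flip permutation test, p = 0.25 for each, the smallest it allows with 3 pairs). This paired test was added after seeing the data. An Lgr5 count of 0 at these depths does not show that the gene was silent in a cell.

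**Figure D3:**
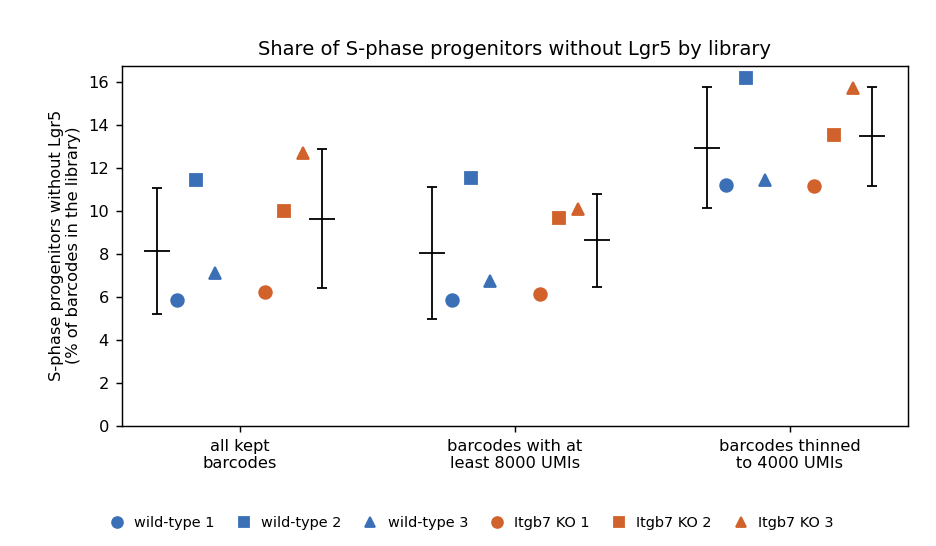
S-phase progenitors without Lgr5 as a percentage of the barcodes of each library, for all kept barcodes, for barcodes with at least 8000 UMIs and for barcodes thinned to 4000 UMIs; points are libraries, and bars are the mean ± SD of 3 libraries. Wild-type (blue) and Itgb7 KO (orange) overlap in each of the 3 settings.

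To compare gene expression between the genotypes, the UMIs of the progenitors were summed per library and tested with edgeR's quasi-likelihood test over 10058 genes, and a gene was called at a Benjamini-Hochberg adjusted p under 0.05. Of these genes 1 was called, Agpat4 (0.00994% of those tested). At an unadjusted p under 0.05 there were 145 higher (1.44%) and 159 lower genes (1.58%). Agpat4 (ENSMUSG00000023827, GRCm38 chr17:12118704-12219645, plus strand) encodes an acyltransferase of glycerophospholipid synthesis. It stood at 27.1, 18.6 and 18.5 CPM in the wild-type progenitors and at 1.96, 3.28 and 1.66 CPM in those labelled Itgb7 KO, from 83 to 131 and from 6 to 18 UMIs per library. The groups were far apart. It fell by 3.17 on the log2 scale (SE 0.31, edgeR adjusted p = 0.0309). The fall was of the same order in the 2 neighbouring sets, with -2.79 in G2/M cells (edgeR adjusted p = 0.0125) and -3.40 in S-phase cells with Lgr5 (edgeR adjusted p = 0.0496). The fold of Agpat4 kept its size without any 1 library, between -3.52 and -2.94. Its adjusted p passed 0.05 without wild-type replicate 1 (0.0509), 2 (0.0893) or 3 (0.195) and without Itgb7 KO replicate 2 (0.230) or 3 (0.121), where edgeR had fewer libraries to fit.

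Next came 2210407C18Rik (ENSMUSG00000037145, GRCm38 chr11:58608204-58616075, minus strand). It stood at 115, 125 and 105 CPM in wild-type and at 219, 231 and 252 CPM in the libraries labelled Itgb7 KO. The groups were separate and narrow, with a log2 difference of 0.997 ± 0.13 (SE) and an edgeR adjusted p of 0.192. It passed the threshold with DESeq2 (adjusted p = 2.11e-06) and in edgeR without replicates 1 of both groups (adjusted p = 0.0221).

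Groups that did not overlap were common among all genes: every library labelled Itgb7 KO was above every wild-type library for 357 genes (3.55%) and below for 411 (4.09%). The genes named here are the 8 of each direction with the lowest unadjusted p and mean expression of at least 5 on the log2 CPM scale. None but those already given reached an edgeR adjusted p below 0.964. Psmb8, a subunit of the immunoproteasome, stood at 173, 98.2 and 138 CPM against 296, 239 and 231 CPM (log2 difference of 0.87 ± 0.24, SE). AW112010 stood at 43.9, 27.6 and 29.1 CPM against 60.2, 55.0 and 78.7 CPM (0.92 ± 0.24). Both were above wild-type in all 3 libraries labelled Itgb7 KO, which the choice of the 8 genes required. Parp2, which senses DNA strand breaks, stood at 33.4, 37.2 and 35.6 CPM against 44.3, 54.2 and 46.3 CPM (0.42 ± 0.12). Sdf2l1, a chaperone cofactor of the endoplasmic reticulum, stood at 103, 100.6 and 100.3 CPM against 141, 142 and 134 CPM (0.43 ± 0.13). Srek1, a splicing regulator, stood at 28.7, 35.0 and 33.1 CPM against 41.5, 49.3 and 48.8 CPM (0.50 ± 0.13). Ldb3 was the other gene of this group at 18.98 to 28.1 against 29.1 to 46.8 CPM. Chgb, a granule protein of enteroendocrine cells, stood at 45.8, 10.9 and 14.01 against 58.3, 55.7 and 133 CPM (1.78 ± 0.56). The 3 richest barcodes held 79.1% to 83.3% of its UMIs in the libraries labelled Itgb7 KO and 68.6%, 9.09% and 25.4% in wild-type replicates 1 to 3.

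The 8 named genes that were lower in every library labelled Itgb7 KO had log2 differences between -0.52 and -0.31. Sord, the sorbitol dehydrogenase of the polyol pathway, stood at 55.9, 57.4 and 46.5 CPM against 37.5, 45.1 and 31.3 CPM (log2 difference of -0.52 ± 0.16, SE). Tkfc, a kinase of dihydroxyacetone and glyceraldehyde, stood at 110, 112 and 110 CPM against 77.9, 103 and 72.9 CPM (-0.42 ± 0.14). Mlxipl, the carbohydrate-responsive transcription factor ChREBP, stood at 67.8, 65.8 and 63.6 CPM against 55.2, 56.4 and 42.7 CPM (-0.38 ± 0.15). Separate groups were part of the choice of all 8, and the adjusted p of these 3 was 0.964 in edgeR. Fibp stood at 40.4, 34.7 and 37.3 CPM against 27.5, 29.3 and 28.6 CPM (-0.43 ± 0.14). Hjurp, which loads the centromeric histone, stood at 57.5, 62.8 and 59.4 CPM against 42.9, 54.1 and 51.6 CPM (-0.31 ± 0.12). Gm561, Plxnb2 and Ano6 completed this group.

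The genes of the cell cycle gave no calls and medians near 0. Of 49 tested genes of the replication origin and fork 23 were higher in the libraries labelled Itgb7 KO, 0 were called by edgeR, 0 had an unadjusted p under 0.05, and the median log2 difference was -0.01, against -0.000688 over all genes tested. Pcna stood at 250, 305 and 241 CPM in wild-type and at 235, 266 and 314 CPM in Itgb7 KO. Mcm7 stood at 144, 140 and 125 against 149, 144 and 115 CPM, and Gmnn at 157, 160 and 150 against 165, 153 and 137 CPM. The groups overlapped for each. Clspn was the gene of this list with the lowest p, at 34.7, 41.9 and 51.4 against 37.0, 34.2 and 29.7 CPM, a log2 difference of -0.37 ± 0.17 (SE) with overlap. The 26 genes of nucleotide supply had a median of -0.02 with 12 higher, and the 37 tested further mitosis genes -0.02 with 16 higher. For 35 genes of DNA damage response and repair the median was 0.02 with 21 higher. Across these 3 lists 0 genes were called by edgeR, and 1 damage response gene had an unadjusted p under 0.05.

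Chromatin and G1/S genes showed more spread between libraries than between genotypes. Of 23 tested genes of chromatin assembly and DNA methylation 17 were higher (median log2 difference 0.13) and 0 were called or had an unadjusted p under 0.05 in edgeR. Hmgb1, an architectural chromatin protein, stood at 1143, 1993 and 1741 CPM in wild-type and at 1236, 2422 and 3111 CPM in Itgb7 KO. Slbp, which binds the stem-loop of histone messages, stood at 181, 314 and 222 against 190, 359 and 437 CPM. Both were lowest in replicates 1 of each group, the deepest libraries. Of 24 G1/S genes 12 were higher with a median of -0.02, and 0 were called or had an unadjusted p under 0.05. Ccne2 stood at 16.3, 40.2 and 32.5 against 20.5, 65.9 and 98.1 CPM (log2 difference of 1.004 ± 0.47, SE), also with overlap and with replicates 1 lowest. The part of depth in these orders was not tested.

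Stem cell, Wnt and adhesion genes gave no calls. Of 20 tested stem cell genes 13 were higher in the libraries labelled Itgb7 KO and 0 were called (1 at an unadjusted p under 0.05), with a median log2 difference of 0.12. Cd44 was the 1 of 20 whose groups did not overlap (3.55% of all genes in that direction), at 24.1, 32.0 and 26.0 CPM in wild-type and 38.7, 37.7 and 37.7 CPM in Itgb7 KO (0.44 ± 0.14, SE, edgeR adjusted p = 0.964). Smoc2 stood at 110, 118 and 96.0 against 99.8, 130 and 121 CPM and Cdca7 at 155, 208 and 173 against 174, 222 and 198 CPM, with overlap. Of 14 Wnt targets 7 were higher, and of 14 Notch pathway genes 6. Foxa3, a factor of secretory cells, stood at 32.3, 35.0 and 25.1 against 34.7, 48.4 and 45.7 CPM (0.45 ± 0.17). Of 26 tested integrin and adhesion genes 12 were higher and 0 were called or had an unadjusted p under 0.05, with a median of -0.02. Cdh1, the E-cadherin that αEβ7 binds, stood at 168, 150 and 163 against 175, 138 and 132 CPM, and Itgb1, the β1 integrin subunit, at 47.5, 67.2 and 68.0 against 54.4, 66.1 and 77.3 CPM. Itgae, the αE subunit, had 0, 2 and 1 against 0, 0 and 1 UMIs.

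Antigen presentation genes were higher in the progenitors labelled Itgb7 KO, without passing the adjusted threshold. The 11 MHC class II genes, which present peptides to CD4 T cells, summed to 701, 97.5 and 278 CPM in the wild-type libraries and to 1545, 990 and 937 CPM in those labelled Itgb7 KO. Every Itgb7 KO library was above every wild-type library. All 6 tested genes were higher with an unadjusted edgeR p under 0.05 and a median log2 difference of 1.64, and 0 of the 6 were called. Among them 2 had no overlap, where 3.55% of all genes had none in that direction. Cd74, the invariant chain, stood at 442, 56.3 and 175 CPM against 949, 686 and 653 CPM (log2 difference of 1.71 ± 0.61, SE, edgeR adjusted p = 0.964). H2-Ab1, a β chain, stood at 115, 20.2 and 50.7 against 265, 165 and 136 CPM (1.57 ± 0.56, same adjusted p). H2-Eb1 stood at 60.7, 5.83 and 20.5 against 157, 66.2 and 58.2 CPM (1.70 ± 0.73), and H2-Aa at 29.3, 2.27 and 8.45 against 83.8, 22.6 and 31.6 CPM (1.85 ± 0.80). For both, wild-type replicate 1 reached into the Itgb7 KO range.

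Libraries of 1 group also differed in these genes. The spread of the class II sum within wild-type, from 97.5 to 701 CPM, was wider than its gap to the libraries labelled Itgb7 KO. Without replicates 1 of both groups, an alternative chosen after seeing the data, edgeR called 11 of 10420 genes (0.106%), 9 higher and 2 lower. Among those 11 were Cd74 (log2 difference of 2.504, edgeR adjusted p = 0.0232), H2-Ab1 (2.08, 0.0232), H2-Eb1 (2.29, 0.0415) and H2-Aa (2.42, 0.04999). The Cd74 UMIs were not concentrated in a few barcodes, and the 3 richest progenitors of a library held 3.74% to 14.9% of them. With barcodes thinned to 4000 UMIs, Cd74 had a UMI in 12.7% to 87.9% of the progenitors of a library and in 7.73% to 70.3% of the remaining barcodes. The part of free RNA in these shares was not tested. Cd74 is also on the list of B and plasma cell markers, whose sum of 60.6 to 446 CPM in wild-type and 657 to 952 CPM in Itgb7 KO followed it. The B cell marker Ms4a1 was at 0 in every library, and Cd79a had 1, 4 and 2 UMIs in wild-type and 0 in each Itgb7 KO library. The class II sum of the progenitors was 0.362 to 0.810 of that in S-phase cells with Lgr5 of the same library, lower in 6 of 6. For Cd74 edgeR's test of the difference between the sets gave no call, with 0.31 against S-phase cells with Lgr5 (adjusted p = 0.954) and -0.01 against G2/M cells (adjusted p = 0.999).

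Class I and interferon response genes showed smaller differences. Of 23 tested genes of MHC class I and its peptide supply 20 were higher, 8 at an unadjusted p under 0.05 (1.44% of all genes), and 9 had no overlap (3.55% of all genes), with a median log2 difference of 0.26 and 0 called by edgeR. B2m, the light chain of class I, stood at 999, 984 and 828 CPM in wild-type and at 1328, 1092 and 1004 CPM in Itgb7 KO. Psme2, an activator of the proteasome, stood at 478, 444 and 462 against 620, 603 and 625 CPM (0.39 ± 0.13, SE). H2-T23, the nonclassical molecule Qa-1, stood at 7.32, 11.9 and 11.1 against 14.01, 26.6 and 25.8 CPM (1.08 ± 0.25), and Tap2, a peptide transporter, at 6.24, 6.25 and 4.89 against 7.57, 13.3 and 10.3 CPM (0.82 ± 0.25). None of these groups overlapped, as for 9 of the 23 tested genes, and each edgeR adjusted p was 0.964. H2-T23 and Tap2 were outside the rule for named genes and were picked after their values were seen. Of 28 tested interferon response genes 24 were higher, 7 with no overlap (3.55% of all genes) and 7 at an unadjusted p under 0.05 (1.44% of all genes), with a median of 0.52 and 0 called. Without replicates 1 that median was 0.06. Ifitm3, which blocks virus entry, stood at 296, 256 and 310 against 751, 394 and 408 CPM (0.84 ± 0.28). Ifi27l2b stood at 103, 110 and 131 against 265, 163 and 151 CPM (0.74 ± 0.24). In both, Itgb7 KO replicate 1 was the highest library.

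**Figure D4:**
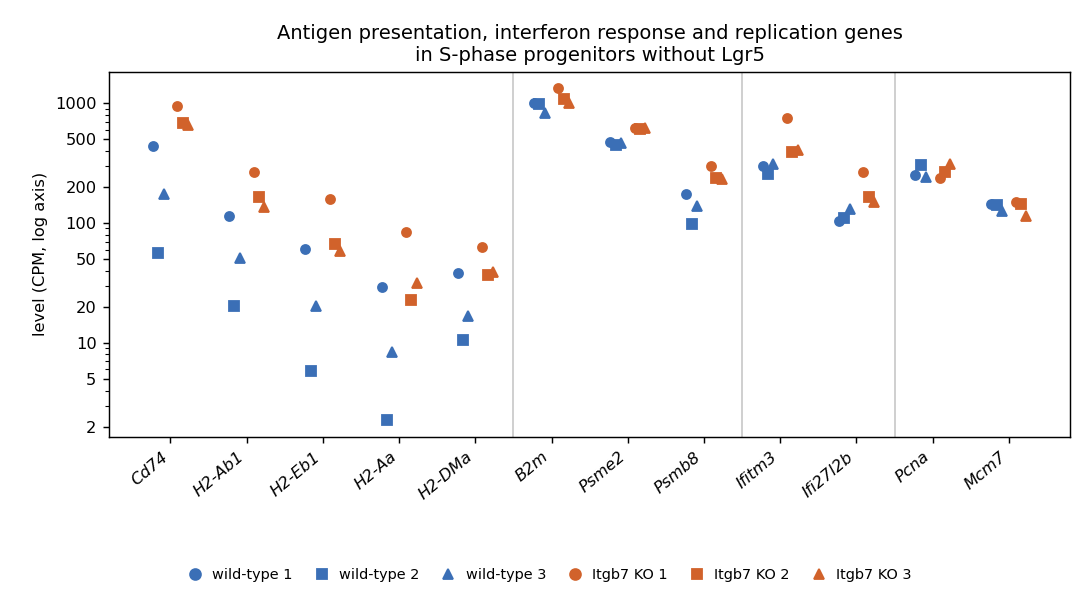
Level (CPM, log axis) in the progenitors of each library for MHC class II genes, class I and its processing, interferon response and, at the right, 2 replication genes; blue is wild-type, orange is Itgb7 KO. The class II genes vary widely within wild-type, and the Itgb7 KO libraries lie above the wild-type libraries for Cd74 and H2-Ab1, while Pcna and Mcm7 overlap.

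Whether genotype differences were particular to the progenitors was asked by testing the difference itself, with the library as a block. Against S-phase cells with Lgr5, edgeR called 15 of 9940 genes (0.151%), all with a higher genotype difference in the progenitors. The count was 24 without wild-type replicate 1, 7 without Itgb7 KO replicate 2 and 8 without Itgb7 KO replicate 3. Among them were the antimicrobial lectins Reg3b and Reg3g, the goblet cell products Tff3, Agr2, Spink4 and Guca2a, the enterocyte carriers Fabp1, Fabp6 and Rbp2, and the hormone gene Cck. Reg3g stood at 1174, 183 and 316 CPM in the wild-type progenitors and at 601, 477 and 868 CPM in those labelled Itgb7 KO, so the groups overlapped within the progenitors. Its genotype difference was 0.15 in the progenitors and -0.72 in S-phase cells with Lgr5, and the difference between these was 0.89 (edgeR adjusted p = 2.88e-06). For Reg3b the difference between the sets was 0.97, for Tff3 0.70, for Agr2 0.62 and for Fabp1 0.61. Without the rare marker-rich barcodes 2 of the 15 were still called, Reg3g (0.47, edgeR adjusted p = 0.0297) and Reg4 (2.15, edgeR adjusted p = 0.0298). The lists that define those barcodes hold several of these genes, among them Reg3b, Reg3g, Tff3, Agr2, Spink4 and Cck. Removing such barcodes lowers these genes by construction, so it is no independent test of the differences. For Reg4, 417 of its 502 UMIs in Itgb7 KO replicate 1 came from 1 barcode. Without the marker-rich barcodes Spink4 turned to -0.05, and the other 14 kept their sign.

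Among the other genes called against S-phase cells with Lgr5, Hist1h2ap differed by 0.90 (edgeR adjusted p = 0.0391), from -0.05 in the progenitors and -0.98 in S-phase cells with Lgr5. It stood at 142, 102 and 249 CPM in the wild-type progenitors and at 173, 197 and 116 CPM in those labelled Itgb7 KO, with overlap. Jund, an AP-1 factor, differed by 0.40. Against G2/M cells, 3 of 10889 genes (0.0276%) were called: Agr2 with a difference of 0.44 (edgeR adjusted p = 0.0251), Reg3b with 0.43 (edgeR adjusted p = 0.0427) and Lig1, whose level the rule used. That count was 6 without wild-type replicate 1, 0 without replicate 2 or 3 of wild-type (469 and 444 genes at an unadjusted p under 0.05), 14 without Itgb7 KO replicate 1 and 11 without Itgb7 KO replicate 3. Without the marker-rich barcodes the difference of Agr2 was -0.05 and 2 genes were called, 1 of them among these 3. The S-phase cells with Lgr5 numbered 60 to 149 per library, and this small number limits the precision of these differences.

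**Figure D5:**
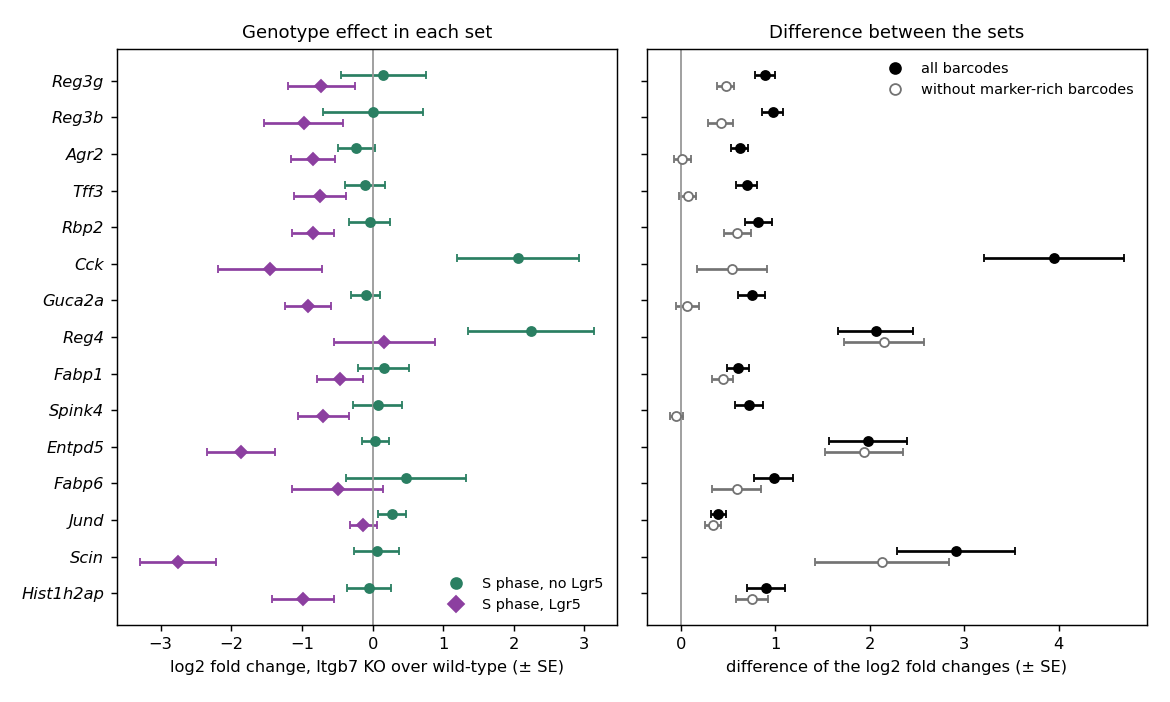
For the 15 genes called against S-phase cells with Lgr5, the left panel gives the log2 difference of Itgb7 KO over wild-type (± SE) in the progenitors (green) and in S-phase cells with Lgr5 (purple), and the right panel the difference between the sets (± SE) with all barcodes (black) and without marker-rich barcodes (open). Green points of most genes lie near 0 and purple points below it, and without marker-rich barcodes Agr2, Tff3, Guca2a and Spink4 move to about 0.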

How the data were processed

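The libraries were prepared with the 10x Chromium 3' version 2 kit per the labels' protocols. Per the submitters' processing notes, the authors worked with mm10, and the tools named are Cell Ranger 2.1.1, bcl2fastq 2.17.1.14 and, without a version, Seurat. The deposited values are whole UMI counts per gene and barcode, which the authors did not normalize. The smallest UMI total of a barcode ranged from 1417 to 13621 between libraries.

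From these counts the rule was applied to each barcode and UMIs were summed per library and set. The sums were tested with edgeR 4.0.16 in R 4.3.3 (TMM scaling, filterByExpr, glmQLFTest, Benjamini-Hochberg adjustment), with DESeq2 1.42.0 as an alternative. Differences between sets were tested as an interaction with the library as a block. Shares were tested by exact 2-sided permutation over libraries. CPM is a level per 1000000 UMIs of the set, a fold is log2 of Itgb7 KO over wild-type, and positions came from GENCODE M21. Scrublet scores of scanpy 1.11.5 were used in 1 alternative, and doublets were otherwise not removed. The alternatives were leaving out libraries, other filters and scalings, blocks, and other limits of the rule.

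The members, the 37 gene lists and the rule for named genes were chosen with earlier results of these data known. The rule took the genes of the selection, Itgb7, Itgae, Itgb1, Cdh1, all called genes, the 8 genes of each direction with the lowest p and separate groups, and per list up to 4 with the highest level and up to 2 with the lowest p. Other genes named were picked after their values were seen.

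Samples with the same replicate number deviated together from their group means over 3814 genes (r = 0.765, 0.522 and 0.291 for replicates 1, 2 and 3). The main tests were unpaired. Pairs by number entered only the replicate block and the sign-flip tests, and the labels do not explain the numbers. Wild-type replicate 2 was closer to Itgb7 KO replicate 3 (r = 0.681) than to its own number, and wild-type replicate 3 to Itgb7 KO replicate 2 (r = 0.321). The fits were tested on simulated data, with 100 genes changed by a log2 fold of 1 and 100 by 2. The genotype fit recovered 57% and 99% of them, with 15 false calls. The test of differences between sets recovered 13% and 89%, with 11 false calls. Its simulated other set had the mean levels and UMI totals of the progenitors and was drawn independently. The real sets differ in size, with 60 to 149 S-phase cells with Lgr5 per library. These 2 rates are thus no measure of what the reported tests between sets could recover. A gene without a call may therefore still differ.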

Additional observations from a re-analysis of the deposited data

Results flagged for a closer look

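The genotype difference of some genes was not the same in the progenitors as in a neighbouring set of cells by edgeR's interaction test with Benjamini-Hochberg adjustment. Against S-phase cells with Lgr5, the log2 difference between the sets was 0.97 for Reg3b, 0.89 for Reg3g, 0.62 for Agr2, 0.70 for Tff3, 0.72 for Spink4 and 0.75 for Guca2a. For the carriers Rbp2, Fabp1 and Fabp6 it was 0.82, 0.61 and 0.98. For Cck it was 3.95 and for Reg4 2.06, and both rested on few barcodes: 456 of 518 Cck UMIs in Itgb7 KO replicate 1 and 370 of 644 in Itgb7 KO replicate 2 came from 1 barcode each. Entpd5 had 1.98 and Scin 2.92, from at most 114 and 50 UMIs per library in the progenitors. Jund had 0.40 and Hist1h2ap 0.90. Against G2/M cells the difference was 0.44 for Agr2 and 0.43 for Reg3b. Marker-rich barcodes numbered 7 of 162, 10 of 577 and 8 of 366 progenitors in wild-type replicates 1 to 3. In Itgb7 KO replicates 1 to 3 they numbered 6 of 174, 21 of 572 and 29 of 579. Without them 2 of the 15 genes were called against S-phase cells with Lgr5. The lists that define these barcodes hold several of the 15 genes themselves, such as Reg3b, Tff3 and Cck.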

How the results depend on the processing

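Of 726 values of 44 genes and differences under 22 settings, 724 kept their direction. The other 2 were the differences of Agr2 against G2/M cells (-0.049) and of Spink4 against S-phase cells with Lgr5 (-0.052) without the marker-rich barcodes, which was chosen after seeing the data. Agr2 and Spink4 are on the goblet cell list that helped to define those barcodes. Genes named for separate groups or because they were called tend to keep their direction by that choice alone. The count of kept directions is therefore no independent support. The number of genes called in the progenitors was 1 by edgeR and 0 to 1 when any 1 library was left out. It was 3 with DESeq2, 3 with no filter but 1 UMI, 2 when the 2 series of library numbers entered as a block, and 11 without replicates 1 of both groups. It was 0 with at least 10 UMIs in each library, where Agpat4 was not tested, 0 with an S-phase sum of at least 8 and 0 in barcodes with at least 8000 UMIs (269, 306 and 211 genes at an unadjusted p under 0.05). With the replicate block 1 gene was called, again Agpat4 (-3.14, edgeR adjusted p = 0.0277), and the pairing changed no other call; the paired difference in share was 1.5 points (exact sign-flip permutation test, p = 0.75, with 0.25 the smallest it allows). The count of differing genes against G2/M cells was 3, 0 to 14 when 1 library was left out and 19 without replicates 1. Against S-phase cells with Lgr5 it was 15, 7 to 24 when 1 library was left out, 2 without marker-rich barcodes and 31 without replicates 1. The difference in share ran from -0.0251 points without Itgb7 KO replicate 3 to 3.20 without Itgb7 KO replicate 1. Settings other than leaving out 1 library gave 0.522 to 2.05. The cause of these changes was not tested. Depth limits the progenitors of Itgb7 KO replicate 3 most, with a median of 6227 UMIs.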

Other observations

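Hormone genes of enteroendocrine cells were higher in the progenitors labelled Itgb7 KO in most cases, and few barcodes carried them. This was not particular to the progenitors. The mean sum of enteroendocrine markers was 2.09 times wild-type in the progenitors, 2.50 in G2/M cells and 2.21 in the remaining barcodes. In S-phase cells with Lgr5 it was 0.836 times. Without the marker-rich barcodes the mean sum was 1.76 times wild-type in S-phase cells with Lgr5 and 1.26 times in the progenitors. Leaving them out took the S-phase cells with Lgr5 of wild-type replicate 2 from 392 to 50.9 CPM. Of 11 enteroendocrine markers tested in the progenitors 10 were higher, 5 at an unadjusted p under 0.05 and 0 called by edgeR, with a median log2 difference of 1.18. Without the marker-rich barcodes that median was 0.29, but those barcodes were defined in part by these same markers. Cck, which signals satiety and releases bile, stood at 11.4, 5.69 and 50.02 CPM in wild-type and at 145, 117 and 15.8 CPM in Itgb7 KO, with overlap. Tac1, the substance P precursor, had no overlap, at 2.71, 1.71 and 0.667 against 5.04, 13.5 and 13.9 CPM, but 68 of its 74 UMIs in Itgb7 KO replicate 2 came from 1 barcode. Gcg, the proglucagon gene, stood at 8.14, 5.54 and 87.8 against 124, 50.4 and 11.1 CPM, and Ghrl, the ghrelin gene, at 24.7, 22.7 and 17.1 against 23.8, 34.03 and 125 CPM. Both overlapped.

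Paneth cell genes were highest in replicates 1 of both groups. Defa24, a defensin, stood at 3486, 118 and 206 CPM in wild-type and at 1891, 222 and 594 CPM in Itgb7 KO, and Lyz1, a lysozyme, at 629, 30.6 and 57.6 against 357, 41.3 and 36.9 CPM. Of 9 tested genes 0 were higher in Itgb7 KO, with a median of -0.78, and without replicates 1 the median was 0.86. Of 13 goblet cell genes 1 was higher, with a median of -0.23, which was -0.68 without the marker-rich barcodes. Those barcodes were defined in part by these same genes. Muc2, the main gel-forming mucin, stood at 192, 110 and 197 against 161.7, 70.1 and 72.9 CPM, with overlap. The 7 tested genes of the Hippo pathway and YAP targets were all lower, with a median of -0.29, 1 at an unadjusted p under 0.05 and 0 called by edgeR. Yap1, the pathway's coactivator, stood at 26.6, 28.7 and 28.9 against 23.5, 24.2 and 16.6 CPM.

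Growth and secretion genes placed the progenitors between the neighbouring sets. Ribosome biogenesis genes summed to 4855 to 5212 CPM, 1.26 to 1.35 times the level in G2/M cells and 0.911 to 0.998 times that in S-phase cells with Lgr5. Cholesterol synthesis genes stood at 0.671 to 0.815 of the level in G2/M cells and at 1.08 to 1.39 times that in S-phase cells with Lgr5. Genes of the unfolded protein response stood at 0.93 to 0.989 and 1.19 to 1.27 times. Within the progenitors, cholesterol synthesis genes were higher at a G2/M sum of 4 to under 8 than below 4 in 6 of 6 libraries, by 1.09 to 1.23 times. All of these lists held their order against each neighbouring set in 6 of 6 libraries.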
